A study of Mus musculus with 9 samples.

Results

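The libraries described here are bulk RNA-seq libraries of whole mouse retina, 3 from control animals at postnatal day 60 and 3 from wild-type C57 animals at postnatal day 30. They are 6 of the study's 9 libraries and were chosen by the group in their labels and the name of their count column, with no measured value used. The other 3 libraries came from retinas in which Yap had been deleted in Müller glia, and they enter one alternative fit and no result. The study concerns YAP, the transcriptional co-activator that the Hippo kinases hold in check, and the exit of Müller glia from rest in a retina that is losing photoreceptors.

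The control animals carried floxed Yap alleles without a Cre driver (Yap flox/flox), so Yap was intact. Like every postnatal day 60 animal they had been given 4-hydroxytamoxifen, the ligand of the CreERT2 recombinase, into the abdomen at postnatal day 10. The letters MNU stand in the names of the control columns and of a deposited comparison. In the published work they mean N-methyl-N-nitrosourea, an alkylating agent that kills photoreceptors, whereas the sample labels name no such treatment, dose or interval. The genotype entry of the control samples names the conditional knockout without Cre, and the design text, followed here, names the floxed mice. The C57 libraries were taken over from another series, and their labels name neither tamoxifen nor MNU. Both groups are of the C57Bl6/J strain, and each postnatal day 60 library was made from 1 frozen retina. Age, the floxed allele, tamoxifen, MNU, the source series, depth and, in part, sex thus differ together between the groups, and in the results below they cannot be told apart. No label states that the 3 libraries of a group came from separate animals, so p-values measure the spread between these libraries.

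Rod and cone photoreceptors turn light into a change of membrane potential through a cascade of opsin, transducin, phosphodiesterase and cyclic-nucleotide-gated channels in their outer segments, and their death is the end point of most inherited retinal degenerations. Müller glia span the whole retina, clear glutamate, water and potassium, and recycle part of the cone chromophore. After photoreceptor injury they become reactive, with intermediate filaments and cytokine signalling raised, but in mammals they seldom divide. Microglia, the resident macrophages, and the vessel wall respond in parallel with chemokines and adhesion molecules.

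The control libraries held 35759106 to 37629264 counted reads and the C57 libraries 13760765 to 16808499, with 22500 to 22834 against 19258 to 19587 genes above 0. Of the variance, 83.1% lay on a first component that parted the groups. A second component, with 10.3%, set the libraries C57 1 and C57 unnumbered, whose column carries a number of no C57 sample, apart. Across 15762 genes the log2 difference between those 2 libraries followed the GC content of the transcript (Spearman correlation 0.739, a description across genes that share 2 libraries). The same correlation was -0.0478 between control 1 and control 2 and 0.244 for control minus C57. Y-linked transcripts were read in the 3 control libraries and in C57 2, and the X-inactivation transcript in C57 1 and C57 unnumbered, so the controls and 1 C57 library were male and the other C57 libraries female. No pair of libraries agreed within sampling noise. Defining markers of rods, cones, bipolar cells and Müller glia were read in all 6 libraries. Values below are CPM (each gene's share of the counted reads, in the usual unit) scaled by edgeR's TMM factors, in the order C57 1, C57 2 and C57 unnumbered, then control 1, 2 and 3, and a log2 fold change is control minus C57 with its standard error (SE).

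The control retinas differed from the C57 retinas in a large share of all genes. Chemokine, protease and cytokine genes stood among the 15 largest rises, and photoreceptor, microglial and haemoglobin genes among the 15 largest falls. Of 15820 genes that passed the count filter, 3655 (23.1%) were higher and 3547 (22.4%) lower in the control retinas at an adjusted p under 0.05 in edgeR's quasi-likelihood test, 45.5% in all. The 3 libraries of one group did not overlap those of the other for 9253 genes (58.5%). The median log2 fold change of all tested genes was 0.03. At least 4-fold changes were counted for 783 higher and 501 lower genes, and at least 16-fold changes for 224 and 44. These are fitted folds, which depend on edgeR's prior count for genes without reads in one group. These shares are the background against which each gene group below is read. The groups were chosen with earlier results of these data known, so a count above these shares may in part reflect that choice. A count or median of a group describes it and is no test of it. Some genes stand in more than 1 group, so counts of different groups can hold the same gene. Fosl1 gave the largest rise of both the gliosis and the AP-1 group (10.27). Lif gave that of both the LIF group and the photoreceptor survival factors (9.105).

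**Figure D1:**
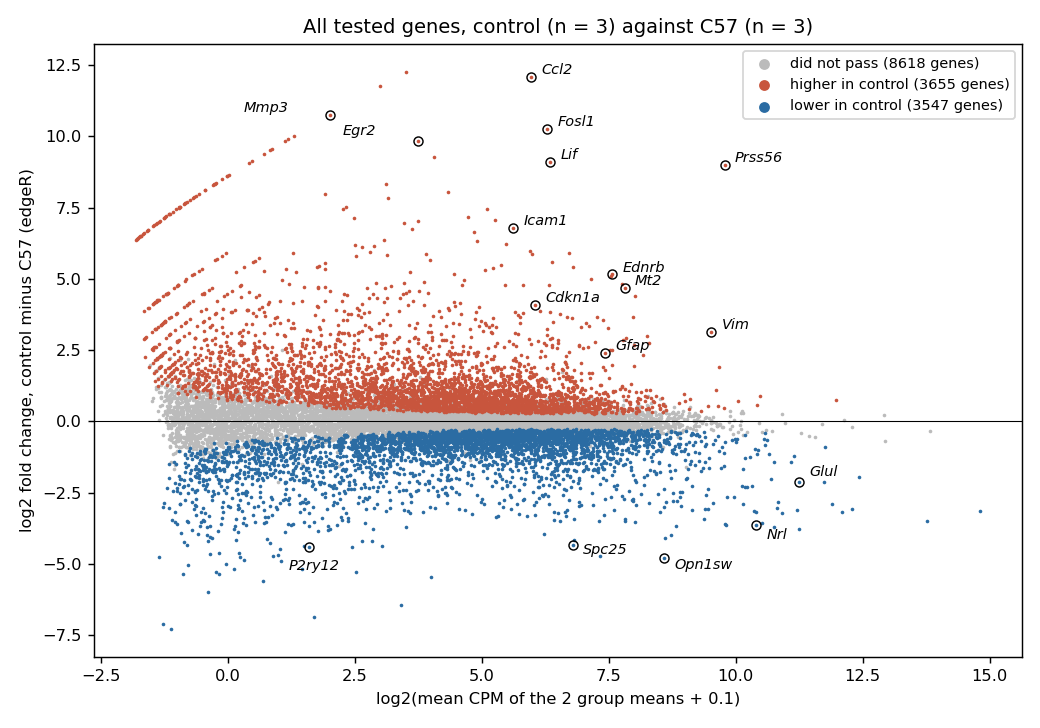
Every tested gene, with the log2 of the mean CPM of both groups (plus 0.1) on the x axis and the edgeR log2 fold change, control minus C57, on the y axis. Red marks the 3655 higher and blue the 3547 lower genes. The diagonal streaks at the upper left are genes with 0 or few counts in the C57 libraries, whose fitted fold change depends on edgeR's prior count and is not a size to be read.

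Several of the genes with the largest rises were at or near 0 in the C57 retinas. Prss56, a secreted serine protease gene known for its role in eye growth and for expression in Müller glia, had 6.43, 2.33 and 1.69 CPM in the C57 libraries and 1445, 1927 and 1904 CPM in the controls. Its log2 fold change was 9.01 (SE 0.52, adjusted p = 2.25e-05), and it lies on chromosome 1 at 87183313 to 87188405 (GRCm38). The 3 control libraries lay close together and far above the highest C57 library, C57 1. Lif, a cytokine gene of the interleukin-6 family, had 0.244, 0.282 and 0.339 CPM in the C57 libraries and 139, 175 and 173 CPM in the controls. It gave the smallest p of all genes (log2 fold change 9.11, SE 0.21, adjusted p = 2.14e-06) and lies on chromosome 11 at 4257557 to 4272514. The C57 values correspond to a handful of reads in each library, and the 3 control values lay close together.

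Several of the other leading genes had 0 to 3 reads in the C57 libraries together, so their change is given as a bound or a ratio of counts. Such genes, here and in the groups below, passed the count filter through the controls alone, so only a rise could be called. Ccl2, the monocyte chemokine, had 0, 0.0705 and 0 CPM in the C57 libraries and 157, 111 and 106 CPM in the controls, a ratio of 5100 with a 95% counting interval of 916 to 202000 that covers counting error only. Ccl7, its neighbour on chromosome 11, had no read in the C57 libraries and 28.9, 21.1 and 17.2 CPM in the controls, at least 102-fold higher against a floor of 3 counts per library. Serpinb2, an inhibitor of plasminogen activators, also had none and stood at 15.4, 18.1 and 13.8 CPM, at least 71.9-fold higher. Both genes were thus undetected in the C57 libraries, at their lower depth, and read in each control library. Egr2, an immediate-early zinc finger gene, had a ratio of 1110 (199 to 43700), and Cxcl10, an interferon-induced chemokine, one of 673 (186 to 5560). Fosl1, which encodes the AP-1 subunit FRA1, rose from 0.244, 0.141 and 0 to 144, 171 and 153 CPM (adjusted p = 5.06e-06).

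The largest falls were more mixed. Abca6, a lipid transporter of the ABC family, had 23.6, 37.2 and 32.2 CPM in the C57 libraries and 0.734, 0.675 and 0.702 CPM in the controls (log2 fold change -5.45, SE 0.22, adjusted p = 6.92e-06). Rspo2, a secreted amplifier of Wnt signalling, had 5.05, 6.2 and 4.13 CPM in the C57 and 0.127, 0.121 and 0.164 CPM in the control libraries. Spc25, a kinetochore gene that is also read in rods, fell from 168, 189 and 274 to 11.8, 8.11 and 11.02 CPM. In these 3 genes the lowest C57 library stood more than 10-fold above the highest control library. Tph2, the neuronal tryptophan hydroxylase, fell from 8.22, 9.02 and 8.33 to 0.734, 0.675 and 0.889 CPM, and Mmd2 from 82.6, 79.2 and 79.99 to 15.1, 11.5 and 13.6 CPM. Srp54a (-6.88), Rpl21 (-2.39) and Rpl24 (6.96, higher) also changed on the log2 scale, but each has near-identical copies between which the authors' counting could split reads, so they are uncertain.

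Rod genes fell throughout. All 21 tested genes of rod phototransduction were lower in the control retinas, with a median log2 fold change of -3.09 against 0.03 for all genes, and no member's groups overlapped. Rod transducin alpha, Gnat1, had 27150, 26140 and 23670 CPM in the C57 libraries and 4200, 701 and 1955 CPM in the controls. The C57 values were close together, whereas control 1 kept over 5 times the level of control 2. The fall was 11.2-fold (log2 fold change -3.49, SE 0.59, adjusted p = 0.0023). In bulk tissue such a fall can mean fewer rods or less RNA per rod, and these cannot be told apart here, for this or any later cell-type gene.

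Every step of the rod cascade was affected. The phosphodiesterase subunits fell alike, Pde6a by 8.66-fold, Pde6b by 8.33-fold and Pde6g by 13.1-fold. The channel subunit Cnga1 had 1363, 1676 and 1859 CPM in the C57 libraries and 237, 46.2 and 115 CPM in the controls (log2 fold change -3.62, SE 0.54). Rod arrestin, Sag, had 6803, 7250 and 6207 CPM in the C57 libraries and 1610, 314 and 796 CPM in the controls (log2 fold change -2.90, SE 0.52), and its groups did not overlap. In the fit that takes in all 9 libraries 16 of the 21 rod genes passed, and Sag (adjusted p = 0.0553), Pde6a (0.0595) and Pde6b (0.0571) did not. In Cnga1 and Sag control 2 was lowest and control 1 highest of the control retinas, with a 5-fold gap between these libraries. The smallest change in the list was that of Gnb5 (-1.82, SE 0.20), the G-protein subunit of the RGS9 complex, which other neurons also express.

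The start-site regions of rod genes are shown because several hold the letters of a site bound by the photoreceptor factor CRX. The letters TAATCC, searched on both strands of the RefSeq (GRCm38.p6) windows from 250 bases before to 50 after each start, occurred for 8 of the 14 tested rod phototransduction genes with a window (57.1%). They occurred for 847 of the 11712 tested genes with a window (7.23%) and in 7.06% of all 32851 windows. Among other falling genes they occurred for 2 of 13 outer segment genes (15.4%), 2 of 8 cone genes (25%) and none of the 10 with a window among the 15 largest falls. A match is a run of letters and no measured binding. The 250 bases before the starts of 3 of these genes follow, 5′ to 3′ on the coding strand, with TAATCC or its reverse complement in capitals. The Sag region is chr1:87803430-87803679 on the plus strand, that of Cnga1 is chr5:72642753-72643002 on the minus strand, and that of Gngt1, the rod transducin gamma gene, is chr6:3993758-3994007 on the plus strand.
Sag: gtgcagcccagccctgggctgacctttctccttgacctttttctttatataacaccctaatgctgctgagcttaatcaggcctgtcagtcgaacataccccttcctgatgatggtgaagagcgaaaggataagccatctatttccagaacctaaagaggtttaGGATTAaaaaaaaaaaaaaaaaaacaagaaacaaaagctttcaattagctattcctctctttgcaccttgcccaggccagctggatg
Cnga1: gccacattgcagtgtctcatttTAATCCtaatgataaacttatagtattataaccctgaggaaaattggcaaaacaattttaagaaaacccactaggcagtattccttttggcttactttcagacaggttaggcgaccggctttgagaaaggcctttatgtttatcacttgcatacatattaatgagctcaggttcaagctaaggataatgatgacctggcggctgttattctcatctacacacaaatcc
Gngt1: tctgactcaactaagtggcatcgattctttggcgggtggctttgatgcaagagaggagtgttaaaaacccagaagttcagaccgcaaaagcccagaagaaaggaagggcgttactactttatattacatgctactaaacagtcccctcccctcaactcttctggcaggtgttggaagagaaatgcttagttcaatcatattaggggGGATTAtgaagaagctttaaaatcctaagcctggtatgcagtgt
The first base of the match lay at -87 for Sag, -228 for Cnga1 and -44 for Gngt1 relative to the start. Gngt1 itself fell from 976, 1171 and 1367 to 303, 92.3 and 190 CPM (adjusted p = 0.00145).

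The genes that build the outer segment moved with the cascade. Of 16 tested, 15 were lower (median log2 fold change -2.88; 11 in the fit of all 9 libraries), and the 16th, Impg2, a matrix proteoglycan gene, stood at -1.61 (SE 0.58, adjusted p = 0.0522) and passed without control 1 (adjusted p = 0.0109) or control 2 (0.0343). Peripherin, Prph2, which shapes the disc rim, had 9375, 7921 and 6458 CPM in the C57 libraries and 1509, 308 and 773 CPM in the controls. Rdh12, the photoreceptor retinol dehydrogenase, fell furthest, from 755, 814 and 818 to 81.5, 24.7 and 45.3 CPM (log2 fold change -3.98, adjusted p = 0.000247). Cep290, a ciliary gene that other cells also use, fell by 2.25-fold, the smallest change in the list.

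Cone genes fell too. Of 12 tested, 11 were lower (median -2.48). Opn1sw, the short-wavelength opsin, had 749, 835 and 635 CPM in the C57 libraries and 46.2, 8.03 and 25.7 CPM in the controls (log2 fold change -4.80, SE 0.59, adjusted p = 0.000526). Opn1mw, the medium-wavelength opsin, had 324, 337 and 267 CPM in the C57 libraries and 24.1, 1.88 and 9.2 CPM in the controls (log2 fold change -4.72, SE 0.77). Cone transducin alpha, Gnat2, varied little among the control retinas, with 303, 354 and 262 CPM in the C57 libraries and 38.8, 26.3 and 29.2 CPM in the controls (adjusted p = 2.38e-05). Kcne2, a potassium channel subunit, was steadier still, at 80.9, 83.8 and 81.6 against 13.1, 13.9 and 12.01 CPM (log2 fold change -2.66, SE 0.11). The opsins thus spread more than 5-fold among the 3 control retinas while Gnat2 and Kcne2 varied far less. Other cone genes also spread more than 5-fold there. Pde6h had 37.4, 2.56 and 17.25 CPM in the controls, Pde6c 72.4, 8.73 and 35.7 CPM and Cnga3 10.8, 0.627 and 5.15 CPM. Cone arrestin, Arr3, fell by 3.84-fold (adjusted p = 0.00306). Gnb3, a G-protein subunit shared with bipolar cells, was the member without a call, at 412, 339.7 and 198 and 364, 286 and 316 CPM.

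**Figure D2:**
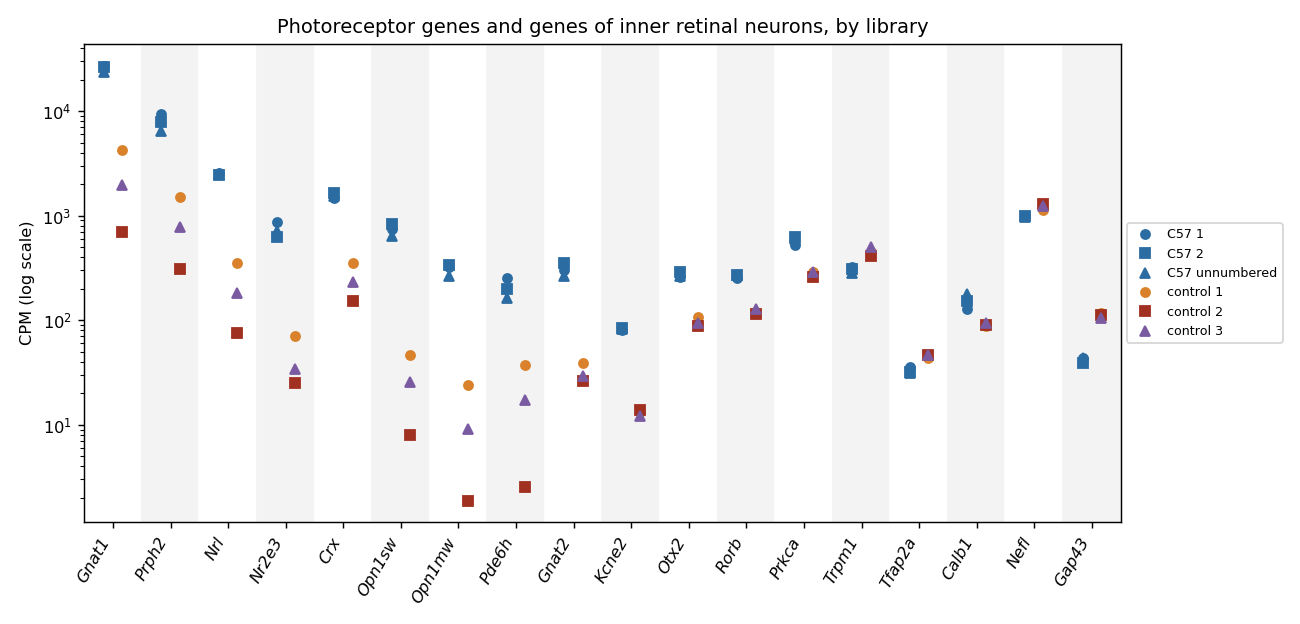
CPM on a log axis of 10 photoreceptor genes, of Otx2 and Rorb, and of 6 genes of inner retinal neurons, 1 symbol per library. Gnat1, Nrl and the cone opsins sit lowest in control 2 and highest in control 1 of the control retinas, whereas Prkca, Trpm1, Tfap2a and Nefl differ far less between groups.

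Of 12 transcription factors of photoreceptors, 9 were lower (median -1.93) and Rax, Neurod1 and Rxrg did not pass. Neurod1 passed without control 1 (adjusted p = 0.00913) and Rxrg without C57 unnumbered (adjusted p = 0.0132). Nrl, which fixes the rod fate, had 2553, 2442 and 2524 CPM in the C57 libraries and 353, 75.8 and 182 CPM in the controls (log2 fold change -3.62, SE 0.50, adjusted p = 0.000951). Its target and partner Nr2e3 had 878, 619.5 and 710.4 CPM in the C57 libraries and 70.7, 24.9 and 34.2 CPM in the controls (log2 fold change -4.09, SE 0.40). Crx, shared by rods and cones, had 1484, 1658 and 1543 CPM in the C57 libraries and 356, 152 and 231 CPM in the controls (-2.67, SE 0.29). The 3 factors are ordered alike over the control libraries, with control 2 lowest. Otx2 and Rorb, which bipolar cells and other neurons also use, fell less and evenly, Otx2 from 259, 289 and 265 to 107, 87.8 and 93.7 CPM and Rorb from 251, 269.5 and 270 to 120.4, 113 and 128 CPM. Rax, read in Müller glia as well as in photoreceptors, had 79.8, 33.3 and 22.2 CPM in the C57 libraries and 35.9, 19.2 and 22.3 CPM in the controls (adjusted p = 0.184), and its groups overlapped. Of 19 genes of the photoreceptor synapse and metabolism, 17 were lower (median -2.03), led by Kcnv2 (-3.66) and Nxnl1 (-3.54), the gene of rod-derived cone viability factor.

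The 3 control retinas differed in how much photoreceptor RNA they held. The median log2 difference of the rod list from the C57 mean was -2.37 in control 1, -4.42 in control 2 and -3.21 in control 3, and that of the cone list -2.07, -3.62 and -2.48. The median standard deviation of a rod gene on the log2 scale was 1.06 among the controls and 0.199 among the C57 libraries, whereas over all genes it was 0.0826 among the controls and 0.211 among the C57 libraries. The summed level of the 21 rod genes ran from 115500 to 129200 CPM in the C57 and from 5078 to 23390 CPM in the control libraries. This loss of a large share of the C57 RNA parts the same groups as every comparison below. CPM are shares, scaled here by TMM factors. The part of the loss in those comparisons was not tested beyond the alternative scalings.

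Genes of inner retinal neurons were called in both directions. Of 16 bipolar cell genes, 1 was higher and 5 lower (median -0.07). Without C57 1 the higher count was 4, and after correction for GC content 3 were higher and 9 lower (median -0.38). Prkca, of rod bipolar cells, fell from 522, 629 and 599 to 288, 259 and 288 CPM (adjusted p = 0.000325), while Trpm1, the channel at the dendrites of ON bipolar cells, rose from 324, 306 and 283 to 446, 415 and 501 CPM. Scgn, of cone bipolar cells, fell by 1.75-fold, and Gnao1, the G protein upstream of Trpm1, did not pass at 648, 686 and 622 and 620.3, 639 and 636 CPM. Prkca and Trpm1 thus moved in opposite directions.

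Of 15 amacrine cell genes 5 were higher and 1 lower (median 0.30), and of 15 ganglion cell genes 8 were higher and none lower (median 0.34). The amacrine count of 5 ran from 1 without control 3 to 8 without C57 1, was 9 after correction for GC content and fell to 0 with sex as a covariate. The ganglion cell count of 8 fell to 5 without C57 2, control 2 or control 3 and to 4 with sex as a covariate, and correction for GC content called 3 members lower. Slc32a1, the vesicular GABA transporter, had 138, 66.8 and 44.4 CPM in the C57 libraries and 177, 175 and 179 CPM in the controls (adjusted p = 0.0379). Its C57 values spread 3-fold, and the call held among the fits that leave out 1 library only without C57 1, with adjusted p of 0.0594 to 0.14 in the others. Th, of dopaminergic amacrine cells, rose from 4.4, 3.6 and 3.12 to 6.96, 8.66 and 6.86 CPM (adjusted p = 0.00356). Among ganglion cell genes the 3 largest rises were those of genes known to respond to axon injury. In bulk RNA these rises cannot be placed in ganglion cells, and injury of axons was not tested. Atf3 had 4.72, 4.87 and 6.77 CPM in the C57 libraries and 51.96, 59.05 and 56.6 CPM in the controls (log2 fold change 3.35, SE 0.17), Ecel1 0.57, 0.564 and 0.61 CPM in the C57 libraries and 5.06, 5.69 and 5.2 CPM in the controls (log2 fold change 3.18), and Gap43 43.9, 39.3 and 43.3 CPM in the C57 libraries and 116, 111 and 105 CPM in the controls (log2 fold change 1.39). Each of the 3 was higher in all control libraries than in any C57 library. Pou4f1, a transcription factor that marks the cells, rose by 0.52 on the log2 scale (adjusted p = 0.00868). Of 9 horizontal cell genes 4 were higher (2 without control 3, 1 with sex as a covariate) and 4 lower, with Calb1 falling from 129, 151 and 177 to 88.3, 90.7 and 94.9 CPM.

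The list of Müller glia genes, of homeostasis and of markers of the cells, split into falls and rises. The largest rise in the list, 3.14 on the log2 scale, was that of Vim, a filament gene described with gliosis below. Of 22 tested, 9 were lower, 5 higher and 8 did not pass. Among all tested genes 22.4% were lower and 23.1% higher, so the count of rises lies near the background. The median of 0.14 became -0.19 after correction for GC content. Without C57 1 the higher count was 8, beside 9 lower. Glul, the glutamine synthetase that detoxifies glutamate, had 4064, 3938 and 3836 CPM in the C57 libraries and 1042, 894 and 768 CPM in the controls (log2 fold change -2.13, SE 0.16, adjusted p = 6.27e-05). Aqp4, the water channel of the endfeet, had 170.2, 185 and 257 CPM in the C57 libraries and 55.6, 28.2 and 36.3 CPM in the controls (log2 fold change -2.35, SE 0.27). Kcnj10, the potassium channel, had 124, 164 and 164 CPM in the C57 libraries and 47.4, 36.9 and 58.4 CPM in the controls (log2 fold change -1.66, SE 0.19). All 3 genes stood lower in every control library than in any C57 library.

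Rlbp1, the retinaldehyde-binding protein, fell from 782, 734 and 709 to 287, 257 and 322 CPM (adjusted p = 0.000145). The deepest falls in the list were those of Abca8a, a lipid transporter, from 326, 462 and 457 to 44.3, 31.2 and 38.8 CPM, and of Car14, a carbonic anhydrase, from 125, 129.6 and 125 to 21.5, 13.4 and 26.3 CPM. The glial glutamate transporter Slc1a3 fell by 1.35-fold, a call lost without C57 2 (adjusted p = 0.0542) or control 2 (0.0528). Against these, the transcription factors that mark the cells rose. Sox2 had 17.4, 18.8 and 18.9 CPM in the C57 libraries and 82.7, 81.2 and 78.6 CPM in the controls (log2 fold change 2.14, SE 0.10, adjusted p = 1.41e-05), and Sox9 19.3, 14.1 and 13.6 CPM in the C57 libraries and 47.7, 48.6 and 50.3 CPM in the controls (log2 fold change 1.65, SE 0.15). The markers did not move as one. Astrocytes share part of them, and of 8 astrocyte genes 4 were higher and 2 lower, with a summed level of 313.8 to 428.1 CPM in the C57 and 673.7 to 774.3 CPM in the control libraries, whose part in these results was not tested.

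Reactive gliosis genes rose throughout. All 23 tested were higher, with a median log2 fold change of 4.79 and no overlap between groups. Vim, the intermediate filament vimentin, had 181, 138 and 130.2 CPM in the C57 libraries and 1282, 1327 and 1350 CPM in the controls (log2 fold change 3.14, SE 0.16, adjusted p = 1.56e-05). Gfap, the filament of reactive glia, had 75.6, 34.1 and 54.9 CPM in the C57 libraries and 341, 229.5 and 299 CPM in the controls (log2 fold change 2.40, SE 0.29, adjusted p = 0.00049). Vim was even among the control retinas, while Gfap was highest in control 1 and varied 2-fold among the C57 retinas. Cd44, the hyaluronan receptor, had 12.5, 13.5 and 18.3 CPM in the C57 libraries and 411, 413 and 429 CPM in the controls (log2 fold change 4.82, SE 0.17).

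Among secreted products of reactive glia, Lcn2, lipocalin, rose from 5.46, 5.92 and 3.93 to 293, 221 and 134 CPM, and Timp1, a protease inhibitor, from 0.244, 0 and 0.203 to 52.01, 38.9 and 28.3 CPM. Serpina3n rose 34.1-fold, but it belongs to a gene cluster of near copies and is uncertain. Lgals3, galectin, rose from 2.44, 1.34 and 1.22 to 58.4, 68.8 and 68.7 CPM. In all of these the lowest control retina stood more than 10-fold above the highest C57 retina. The smallest rise of the list was that of Tnc, the matrix glycoprotein tenascin, by 1.9-fold. Edn2, the endothelin made by stressed photoreceptors, varied 4-fold among the controls. It had 1.14, 0.423 and 1.15 CPM in the C57 libraries and 9.92, 2.34 and 5.59 CPM in the controls (log2 fold change 2.72, SE 0.62, adjusted p = 0.00862). The Edn2 call was lost in the fit of all 9 libraries (adjusted p = 0.108). Ednrb, the endothelin receptor on Müller glia and astrocytes, rose from 7.9, 8.81 and 14.2 to 435, 324 and 347 CPM (log2 fold change 5.16).

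**Figure D3:**
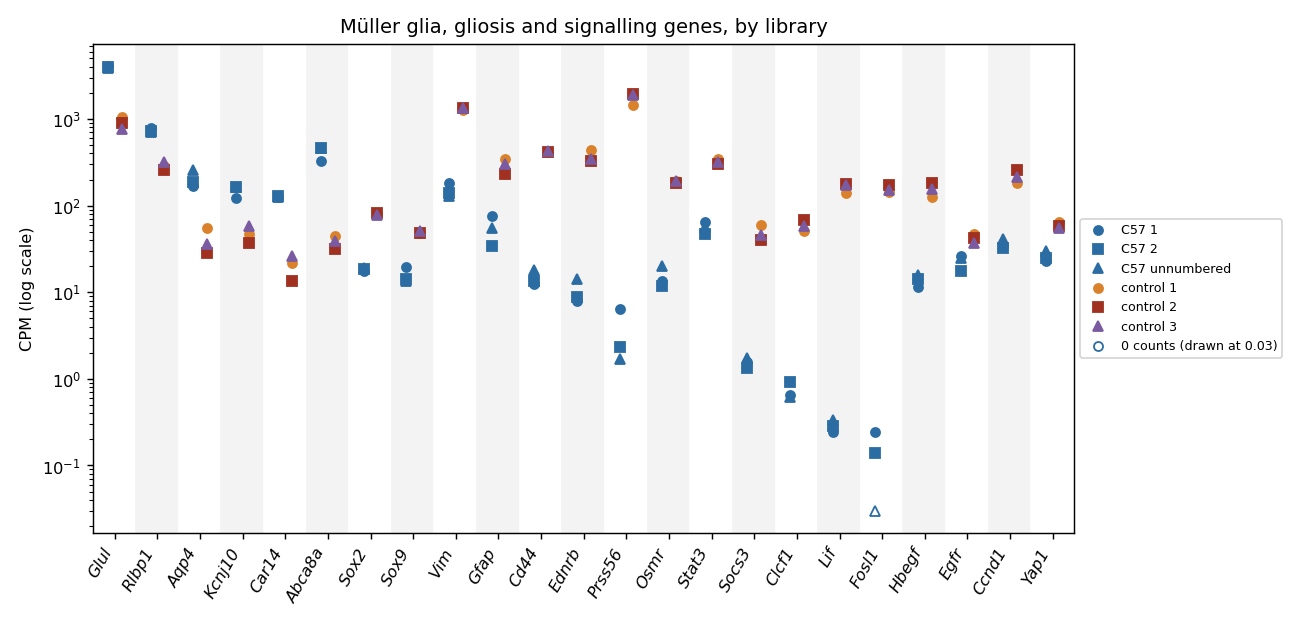
CPM on a log axis of Müller glia, gliosis, cytokine and growth-signalling genes, 1 symbol per library, with 0 counts drawn as an open symbol at 0.03 CPM. Glul, Rlbp1, Aqp4, Kcnj10, Car14 and Abca8a lie lower in the controls, and every gene from Sox2 to Yap1 lies higher in each control library than in any C57 library.

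RNA of ligands, receptors and transducers of the LIF pathway changed, while activity of the pathway was not measured. Of 20 tested genes of the LIF and interleukin-6 family, 16 were higher and 1 lower (median 3.20). Among ligands, Clcf1 had 0.651, 0.916 and 0.61 CPM in the C57 libraries and 50.6, 67.9 and 58.6 CPM in the controls (log2 fold change 6.33, SE 0.21, adjusted p = 5.06e-06), and Il11 had 3 reads in all C57 libraries together and 1.47, 2.46 and 2.39 CPM in the controls. Il6 and Cntf did not reach the count filter, with 27, 14 and 11 reads of Il6 in the controls and none in C57. Of the receptors, Osmr rose from 13.3, 11.8 and 20.2 to 194, 183 and 194 CPM, and the shared chain Il6st rose by 1.73-fold. Lifr itself fell from 43.97, 38.9 and 59.4 to 33.2, 25.4 and 28.4 CPM (adjusted p = 0.0144), a call that was lost without control 2 (adjusted p = 0.0636) or control 3 (0.055).

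Among the transducers, Stat3 had 65.2, 47.2 and 57.03 CPM in the C57 libraries and 342, 299.6 and 322 CPM in the controls (log2 fold change 2.51, SE 0.14), whereas the receptor kinase Jak1 (0.24, adjusted p = 0.114) did not pass. Targets of the pathway also rose. Socs3, the feedback inhibitor, had 1.55, 1.34 and 1.76 CPM in the C57 libraries and 59.05, 40.04 and 45.9 CPM in the controls (log2 fold change 4.96, SE 0.21), Bcl3 0.326, 0.141 and 0.136 CPM in the C57 libraries and 16.3, 12.9 and 13.9 CPM in the controls, and Cebpd, a transcription factor of the acute-phase response, 2.44, 2.19 and 1.15 CPM in the C57 libraries and 135, 113 and 118 CPM in the controls. These 3 were below 3 CPM in every C57 library and above 12 CPM in every control.

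Ligands of the EGF receptor and the receptor itself were higher. Of 13 tested genes 8 were higher and 1 lower (median 0.88). Hbegf, the heparin-binding ligand, had 11.6, 14.03 and 15.98 CPM in the C57 libraries and 127, 183 and 157 CPM in the controls (log2 fold change 3.49, SE 0.19, adjusted p = 1.92e-05). Tgfa rose from 7.17, 8.11 and 8.6 to 29.2, 32.7 and 29.5 CPM, and Ereg had no C57 read and 1.8, 3.55 and 2.41 CPM in the controls, at least 11.8-fold higher. Egfr had 25.9, 17.8 and 25.1 CPM in the C57 libraries and 46.9, 42.1 and 37.4 CPM in the controls (log2 fold change 0.88, SE 0.17, adjusted p = 0.0041). Its lowest control value was still above its highest C57 value. Erbb3 was the member that fell (-0.93, adjusted p = 0.0276), at about 1 CPM or less, and the call was lost without C57 2, C57 unnumbered, control 1 or control 3 (adjusted p 0.0777 to 0.0953). Of 17 feedback regulators of the ERK cascade 10 were higher and 2 lower (median 0.83). Phlda1 (2.61), Dusp6 (1.56), the ERK phosphatase, and Spry2 (1.55), the Sprouty inhibitor, led the rises, and Etv5 (-0.83) and Dusp4 (-0.40) fell, the latter not without control 1 (adjusted p = 0.0754) or control 2 (0.0927).

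AP-1 and immediate-early genes rose with them. Of 21 tested, 17 were higher and none lower (median 2.29). Junb had 5.29, 0.846 and 0.474 CPM in the C57 libraries and 132, 112 and 128 CPM in the controls (log2 fold change 5.88, SE 0.64), and its C57 values spread 11-fold. Myc, the growth regulator, had 0.407, 0.282 and 0.406 CPM in the C57 libraries and 44.04, 63.6 and 50.6 CPM in the controls (log2 fold change 7.16, SE 0.25, adjusted p = 5.06e-06). Jun had 28.8, 15.4 and 14.2 CPM in the C57 libraries and 114, 154 and 121 CPM in the controls and Fos 20.7, 17.3 and 15.2 CPM in the C57 libraries and 69.4, 49.4 and 64.5 CPM in the controls. Fos and Jun were present in the C57 retinas and rose 3.45- and 6.71-fold, whereas Myc and Fosl1 started from near 0. Nr4a1, which neuronal activity induces, did not pass (adjusted p = 0.151) but did without C57 1 (0.0153).

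The AP-1 recognition sequence was searched for beside these values. The letters TGANTCA on both strands, N being any base, occurred for 6 of the 10 genes with a RefSeq window among the 15 largest rises (60%), for 733 of 11712 tested genes (6.26%) and in 7.81% of all windows. Those 6 genes are Cxcl10, Il1rn, Lif, Mmp3, Plaur and Serpinb2. The set was picked by its rise in these same libraries. All of the 6 but Lif had 0 to 2 C57 reads in all and passed the count filter through the controls alone. A match is no measured binding, and a role of AP-1 in these rises was not tested. None of the 10 genes with a window among the 15 largest falls held the letters. They also occurred for 2 of 14 rod genes (14.3%) and 2 of 13 outer segment genes (15.4%), which fell, and for 4 of 19 gliosis genes (21.1%), which rose. Of the 15 genes with a window in the AP-1 and immediate-early list none held them, and of 8 chemokine genes 1 did (12.5%). The regions before the starts of Lif, chr11:4257318-4257567 on the plus strand, Mmp3, chr9:7445572-7445821 on the plus strand, and Plaur, chr7:24462233-24462482 on the plus strand, are shown 5′ to 3′ with the match in capitals.
Lif: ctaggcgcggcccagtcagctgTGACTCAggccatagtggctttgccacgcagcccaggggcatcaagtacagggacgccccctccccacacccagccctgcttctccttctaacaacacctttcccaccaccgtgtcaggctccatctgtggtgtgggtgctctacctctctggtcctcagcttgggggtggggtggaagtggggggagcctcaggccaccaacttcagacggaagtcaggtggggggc
Mmp3: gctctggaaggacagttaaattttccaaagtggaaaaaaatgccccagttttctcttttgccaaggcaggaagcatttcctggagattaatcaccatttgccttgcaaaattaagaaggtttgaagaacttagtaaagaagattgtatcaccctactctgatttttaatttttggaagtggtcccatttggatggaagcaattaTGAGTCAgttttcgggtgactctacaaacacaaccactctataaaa
Plaur: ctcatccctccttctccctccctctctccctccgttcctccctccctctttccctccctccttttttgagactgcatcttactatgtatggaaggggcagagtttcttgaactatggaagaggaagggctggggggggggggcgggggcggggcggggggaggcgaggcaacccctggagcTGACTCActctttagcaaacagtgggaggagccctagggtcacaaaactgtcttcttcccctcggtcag
The match began at -228 in Lif, -46 in Mmp3 and -69 in Plaur. Plaur, the urokinase receptor, had a count ratio of 352 (95% counting interval 97.4 to 2910) and Mmp3, stromelysin, was at least 35.8-fold higher.

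Yap1 and its partners were higher in the control than in the C57 retinas, and Yap was intact in both groups. Yap1 had 22.7, 24.5 and 29.7 CPM in the C57 libraries and 63.8, 58.5 and 54.9 CPM in the controls (log2 fold change 1.20, SE 0.13, adjusted p = 0.000348). Wwtr1, which encodes the paralogue TAZ, had 19.2, 22.1 and 25.7 CPM in the C57 libraries and 67.8, 69.9 and 64.1 CPM in the controls (log2 fold change 1.59, SE 0.13). Tead1, the DNA-binding partner, had 18.4, 23.1 and 30.9 CPM in the C57 libraries and 97.7, 94.05 and 97.7 CPM in the controls (log2 fold change 1.996, SE 0.18). For all 3 the controls stood above every C57 library. Of 23 pathway components 11 were higher and 2 lower (median 0.60), 4 being lower without C57 1 and 1 when any other single library was left out. Lats2, one of the core kinases, had 0.20 on the log2 scale (adjusted p = 0.232, or 0.0346 without C57 unnumbered).

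Of 21 genes known as YAP targets 15 were higher and 1 lower (median 1.07). Ccn1 (Cyr61) had 4.89, 2.68 and 4 CPM in the C57 libraries and 45.1, 70.05 and 51.1 CPM in the controls (log2 fold change 3.85, SE 0.26, adjusted p = 4.28e-05), whereas Ccn2 (Ctgf) had 22.4, 18.1 and 26.9 CPM in the C57 libraries and 18.3, 16.9 and 14.98 CPM in the controls (log2 fold change -0.43, adjusted p = 0.0691, and 0.0401 without C57 2). Ccn1 thus stood above every C57 library in each control, while the groups overlapped for Ccn2. Axl, a receptor tyrosine kinase, rose from 31.8, 24.9 and 21.5 to 312, 317 and 296 CPM and Gadd45b from 4.23, 2.4 and 3.66 to 178, 236 and 208 CPM. Nt5e, an ectonucleotidase also read in rods, was the target that fell (-3.20, SE 0.34).

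Genes of entry into the cell cycle rose in part, and 11 of 23 genes of replication and mitosis had too few reads to be tested. Of 16 G1 genes 10 were higher and 1 lower (median 1.14), and of 12 tested replication and mitosis genes 3 were higher and 1 lower (median 0.18). Ccnd1, cyclin D1, had 34.6, 32.5 and 40.8 CPM in the C57 libraries and 181, 257 and 213 CPM in the controls (log2 fold change 2.59, SE 0.16, adjusted p = 3.32e-05). Cdk6 rose from 4.15, 3.74 and 5.55 to 28.1, 39.8 and 28.9 CPM and Ccnd2 from 6.76, 6.63 and 7.86 to 39.3, 47.9 and 23.9 CPM. At the same time the inhibitor Cdkn1a, which encodes p21, had 7, 5.57 and 9.21 CPM in the C57 libraries and 108, 147 and 118 CPM in the controls (log2 fold change 4.10, SE 0.22, adjusted p = 1.83e-05). Activators and the inhibitor of the G1 kinases were thus higher in the same retinas.

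Of the 23 replication and mitosis genes 11 were under the count filter. Mki67, the proliferation marker, had 1, 2 and 1 reads in the C57 and 3, 1 and 2 reads in the control libraries. Top2a had 2, 2 and 0 against 9, 10 and 8 reads, and Cdk1 3, 3 and 2 against 5, 8 and 8, at more than 2 times the depth in the controls. The helicase subunits Mcm3, Mcm5 and Mcm6 were the 3 that passed, with log2 fold changes of 0.64, 0.66 and 0.89. Without control 1, control 2 or control 3 the count was 1, and with sex as a covariate it was 0. Pcna did not pass (0.09, adjusted p = 0.511), and Plk1 fell (-2.56). At this depth little mitotic RNA was detected in either group.

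Targets of p53 rose in part. Of 30 tested 16 were higher and 3 lower (median 0.63). Eda2r, a death receptor of the ectodysplasin family, had 0.244, 0.211 and 0.136 CPM in the C57 libraries and 8.58, 14.7 and 10.2 CPM in the controls (log2 fold change 5.81, SE 0.37), and Phlda3 7.25, 5.5 and 4 CPM in the C57 libraries and 56.6, 77.7 and 71.5 CPM in the controls (log2 fold change 3.63, SE 0.23). Fas rose from 0.814, 0.634 and 0.677 to 17.97, 10.7 and 14.3 CPM. Mdm2, the feedback ligase of p53, had 42.3, 49.5 and 53.7 CPM in the C57 libraries and 56.3, 57.9 and 62.8 CPM in the controls (log2 fold change 0.28, adjusted p = 0.0939, and 0.0349 without C57 unnumbered), and Ccng1 (0.24, adjusted p = 0.215) did not pass either. Sesn1, Tigar and Ei24 fell. Without C57 1 the count of lower members was 7, and with sex as a covariate 9 were higher.

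Repair genes for alkylated DNA gave few calls, with 3 of 16 higher and 1 lower (median -0.06). The balance depended on the fit, with 4 lower without C57 1, 1 higher and 5 lower after correction for GC content, and no call in either direction with sex as a covariate. Mgmt, which removes methyl groups from guanine, had 0.651, 0.846 and 0.474 CPM in the C57 libraries and 1.37, 1.25 and 1.08 CPM in the controls (log2 fold change 0.90, SE 0.28, adjusted p = 0.0322), a call that did not hold when any library but C57 2 was left out (adjusted p 0.0567 to 0.0959). Alkbh2 (1.01) and Apex1 (0.66) were among the higher. Of 25 genes of cell death 14 were higher and 3 lower (median 0.76), 8 being higher with sex as a covariate. Casp8, the caspase of death receptors, rose from 1.22, 1.06 and 1.29 to 10, 10.1 and 9.06 CPM, and Mlkl, the executor of necroptosis, from 0.244, 0.282 and 0.0677 to 1.9, 1.76 and 1.05 CPM. Tnfrsf1a, the tumour necrosis factor receptor, rose from 15.2, 12.3 and 9.28 to 77.3, 77.2 and 68.1 CPM.

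Inflammatory genes rose across several groups. Of 14 tested chemokine genes 13 were higher (median 6.25, or 4.37 with the 3 genes without C57 reads set to their bounds) and 1, Il34, passed only without C57 1 (adjusted p = 0.00111). Members with 0 to 3 C57 reads in all, Ccl2, Ccl7, Ccl3 and Cxcl1 among them, passed the count filter through the controls alone. No fall could be called for them, so the count and median rest in part on the filter. Beside Ccl2, Ccl7 and Cxcl10, Ccl3 had a count ratio of 149 (95% counting interval 50.7 to 721), and the neutrophil chemokines Cxcl1 and Cxcl2 were at least 19.8- and 21.5-fold higher. Csf1, the growth factor of microglia, had 7.25, 6.34 and 5.69 CPM in the C57 libraries and 62.7, 57.9 and 54.6 CPM in the controls (log2 fold change 3.19, SE 0.14, adjusted p = 9.3e-06). The neuronal chemokine Cx3cl1 rose by 1.38-fold (adjusted p = 0.0264), a call lost without C57 2, control 1, control 2 or control 3 (adjusted p 0.0737 to 0.101).

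All 27 genes of NF-kB, interleukin-1 and Toll-like receptor signalling passed, 26 higher and 1 lower (median 2.20). Icam1, the leukocyte adhesion molecule, had 0.977, 0.916 and 0.745 CPM in the C57 libraries and 116, 80.2 and 94.99 CPM in the controls (log2 fold change 6.79, SE 0.22, adjusted p = 5.06e-06). Nfkb2 rose from 4.48, 2.96 and 1.96 to 86.3, 87.95 and 79.6 CPM and Relb from 3.99, 1.69 and 1.96 to 37.8, 39.1 and 36.95 CPM, both subunits of the non-canonical pathway. Il1b had no C57 read and 4.58, 1.83 and 3.96 CPM in the controls, at least 15.7-fold higher. Vcam1 rose from 28.2, 32.99 and 38.5 to 255, 166 and 200.3 CPM. The inhibitor Tnfaip3 was the member that fell, from 285, 288 and 317 to 101, 57.9 and 82.4 CPM (log2 fold change -1.88, SE 0.20, adjusted p = 0.00028). Tnfaip3 RNA thus moved against that of the other members, while activity of the pathway was not measured. It was lowest in control 2, as the rod genes were, and a link between them was not tested.

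An NF-kB recognition motif, read as GGGA, then any base, then TTTCC on either strand, occurred for 3 of the 8 chemokine genes with a window (37.5%), Cxcl1, Cxcl2 and Csf1, for 61 of 11712 tested genes (0.521%) and in 0.411% of all windows. It occurred for 3 of 21 genes of the NF-kB list (14.3%), 1 of 13 outer segment genes (7.69%) and none of the 10 among the largest rises. Cxcl1 and Cxcl2 had no C57 read and passed the count filter through the controls alone, and a match is no measured binding. The Cxcl2 region, chr5:90903649-90903898 on the plus strand, is shown for the match at -97, in capitals.
Cxcl2: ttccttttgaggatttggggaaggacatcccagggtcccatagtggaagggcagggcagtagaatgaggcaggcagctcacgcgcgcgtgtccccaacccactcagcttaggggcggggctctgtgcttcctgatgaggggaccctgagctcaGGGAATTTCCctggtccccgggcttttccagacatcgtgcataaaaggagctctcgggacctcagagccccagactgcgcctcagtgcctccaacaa

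**Figure D4:**
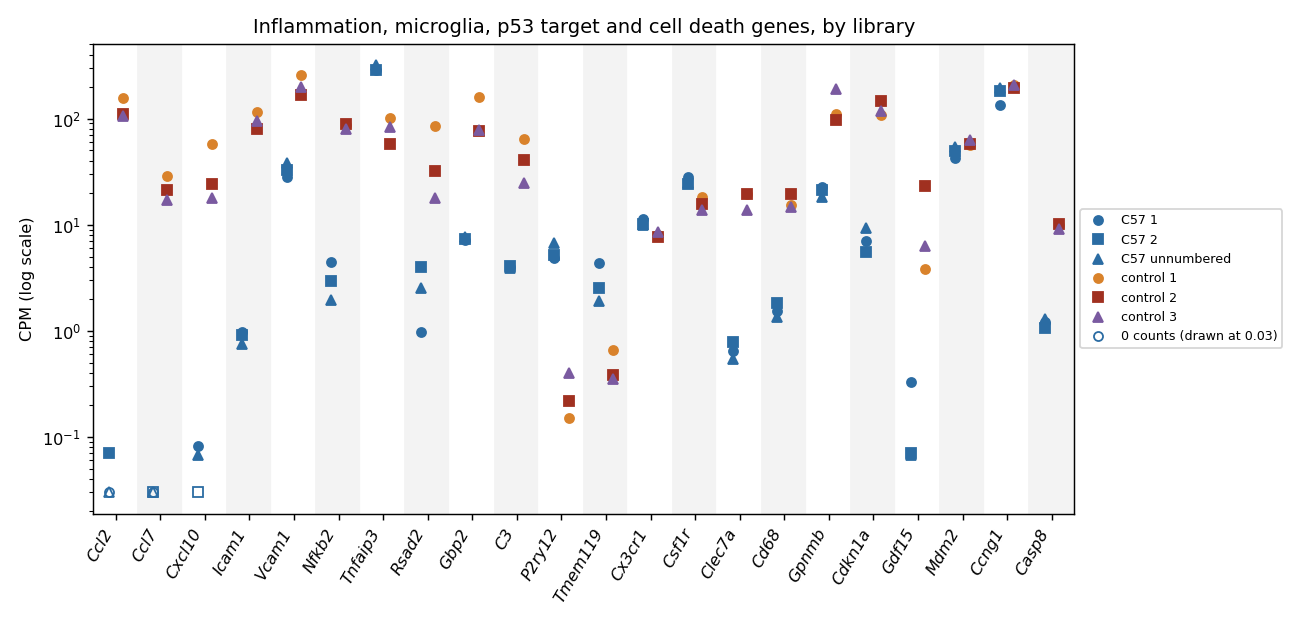
CPM on a log axis of inflammation, microglia, p53 target and cell death genes, 1 symbol per library, with 0 counts drawn as an open symbol at 0.03 CPM. Chemokines and adhesion genes lie higher and Tnfaip3, P2ry12 and Tmem119 lower in every control library, and Rsad2, Gbp2 and C3 fall from control 1 to the other controls.

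Interferon-stimulated genes rose with a different order among the controls. Of 25 tested 23 were higher (median 2.20), and 14 with sex as a covariate, a fit that in effect compares the controls with the 1 male C57 library. Rsad2, viperin, had 0.977, 3.95 and 2.51 CPM in the C57 libraries and 84.6, 32.2 and 17.9 CPM in the controls (log2 fold change 4.15, SE 0.68, adjusted p = 0.00205). Gbp2, a guanylate-binding protein, had 7.17, 7.33 and 7.72 CPM in the C57 libraries and 159.7, 76.1 and 77.95 CPM in the controls (log2 fold change 3.82, SE 0.32). B2m, the light chain of MHC class I, had 43.6, 66.2 and 45.2 CPM in the C57 libraries and 164, 185 and 115 CPM in the controls (log2 fold change 1.58). The median difference of the list from the C57 mean, on the log2(CPM + 1) scale, was 2.13 in control 1, 1.67 in control 2 and 1.15 in control 3, an order other than that of the rod genes. Of 17 complement genes 11 were higher and 2 lower (median 1.27). C3 rose from 3.99, 4.09 and 3.93 to 64.1, 40.3 and 24.4 CPM, again highest in control 1, and the membrane inhibitor Cd59a fell from 39.7, 51.1 and 58.3 to 17.7, 12.5 and 14.02 CPM.

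Microglial genes moved in both directions. Of 21 tested 6 were higher and 6 lower (median -0.34). Among all tested genes 23.1% were higher and 22.4% lower, so both counts lie near the background. P2ry12, the purine receptor of resting microglia, had 4.8, 5.15 and 6.71 CPM in the C57 libraries and 0.152, 0.217 and 0.398 CPM in the controls (log2 fold change -4.41, SE 0.33, adjusted p = 6.75e-05). Tmem119 fell from 4.4, 2.54 and 1.9 to 0.658, 0.386 and 0.351 CPM and Siglech by 3.29-fold. Cx3cr1, the fractalkine receptor, had 11.4, 10.1 and 9.89 CPM in the C57 libraries and 8, 7.62 and 8.49 CPM in the controls (log2 fold change -0.38, adjusted p = 0.0504, and 0.0437 without C57 unnumbered). Clec7a, a receptor of activated phagocytes, had 0.651, 0.775 and 0.542 CPM in the C57 libraries and 19.6, 19.5 and 13.8 CPM in the controls (log2 fold change 4.74, SE 0.25, adjusted p = 1.83e-05), and the lysosomal Cd68 rose from 1.55, 1.83 and 1.35 to 15.3, 19.6 and 14.7 CPM. P2ry12 and Tmem119 were thus lower, and Clec7a and Cd68 higher, in every control library than in any C57 library. The summed level of the list was 225.7 to 239.8 CPM in C57 and 364.7 to 440.4 CPM in the controls.

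Most markers of blood-derived leukocytes stayed near the detection limit. Of 16 monocyte, macrophage and neutrophil genes 3 were tested. F13a1 (2.47, adjusted p = 0.00596) and Mrc1 (1.22, adjusted p = 0.0419) passed, and the call of Mrc1 held among the fits that leave out 1 library only without control 3 (adjusted p 0.0577 to 0.146 in the others). Ccr2, the receptor for CCL2 on monocytes, had 0, 1 and 0 reads in the C57 and 39, 21 and 11 reads in the control libraries. Plac8 had 1, 0 and 0 reads in the C57 and 24, 22 and 5 in the control libraries. Chil3 had 0, 0 and 6 against 31, 10 and 8 reads, and Cd163 1, 3 and 1 against 3, 4 and 2. The controls were read at greater depth. The neutrophil genes Ly6g and Mpo had 1 read and none in all. The summed level of the list was 23.7 to 29.4 CPM in the C57 and 22.42 to 27.77 CPM in the control libraries. Its mean log2(CPM + 1) was 0.39, 0.41 and 0.42 in the C57 libraries and higher in each control, at 0.69, 0.59 and 0.47. Of 13 T and B cell genes only Cd8a was tested, and it fell.

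RNA of tissues next to the retina also differed between groups. Of 16 genes of the retinal pigment epithelium 10 were lower and 2 higher (median -1.05, summed level 495.8 to 525.5 CPM in C57 and 232.8 to 289.9 CPM in the controls). Rpe65, its visual-cycle isomerase, fell from 32.6, 33.4 and 34.2 to 4.53, 7.84 and 5.29 CPM and Rrh, peropsin, from 24.1, 27.5 and 25.7 to 2.73, 2.77 and 2.95 CPM. Haemoglobin genes were lower, Hbb-bs from 132, 66.5 and 12.9 to 5.52, 10.2 and 4.8 CPM, and the C57 libraries themselves spread 10-fold; haemoglobin genes have near copies and are uncertain. Endothelial and pericyte genes had a summed level of 939.3 to 1045 CPM in C57 and 970.9 to 992.6 CPM in the controls, with 5 of 18 higher and 2 lower. Without control 2 the higher count was 2, as it was with sex as a covariate, and the lower count was 4 without C57 unnumbered or after correction for GC content and 1 without C57 2, control 1 or control 2. Lens genes had a summed level of 4.07 to 19.8 CPM and 7.43 to 12.4 CPM. The part of these tissues in the results was not tested. Of 15 visual-cycle genes 10 were lower and 4 higher (median -1.19), among the latter Cyp26a1 (2.26), which degrades retinoic acid.

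Many genes of extracellular proteolysis and TGF-beta signalling rose. Of 21 TIMP, metalloproteinase and plasminogen-system genes 15 were higher and none lower (median 1.66). Adamts1, an aggrecan-cleaving protease, had 25.7, 40.8 and 34.7 CPM in the C57 libraries and 334, 373 and 270.4 CPM in the controls (log2 fold change 3.27, SE 0.20, adjusted p = 3.18e-05), and Plat, the tissue plasminogen activator, 20.3, 11.6 and 17.6 CPM in the C57 libraries and 192, 242 and 171 CPM in the controls. Of 24 genes of the TGF-beta and activin pathway 16 were higher and none lower (median 1.34). Smad3, the transducer, rose evenly from 57.6, 59.01 and 57.8 to 194, 188 and 188 CPM (log2 fold change 1.71, SE 0.09). Ltbp2, a matrix carrier of latent TGF-beta, rose from 2.44, 4.23 and 3.79 to 50.8, 37.2 and 18.9 CPM.

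Of 22 factors known to protect photoreceptors 14 were higher (7 with sex as a covariate) and 1 lower (median 0.83). Beside Lif, Gdnf had 0.163, 0.352 and 0.271 CPM in the C57 libraries and 4.73, 9.75 and 6.62 CPM in the controls (log2 fold change 4.70, SE 0.43) and Fgfr1 36.4, 29.7 and 27.6 CPM in the C57 libraries and 86.6, 92.4 and 94.1 CPM in the controls. Fgf2 had 28.7, 28.6 and 46.8 CPM in the C57 libraries and 95.2, 43.01 and 58.7 CPM in the controls (log2 fold change 0.92, SE 0.31, adjusted p = 0.0449), but its groups overlapped and the call was lost without C57 1, C57 2, control 1 or control 3 (adjusted p 0.0788 to 0.167). Ptn fell (-0.81). Of 20 Notch and progenitor genes 9 were higher and 2 lower, with 5 higher without C57 2 or control 2, 4 higher with sex as a covariate and 5 lower after correction for GC content. Neurog2, a proneural factor, had 1.63, 1.55 and 2.98 CPM in the C57 libraries and 10.7, 16.96 and 13.8 CPM in the controls (log2 fold change 2.74, SE 0.29), and the ligand Jag1 fell (-1.91, adjusted p = 0.000326).

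Many cytoskeletal genes rose, and many genes of energy metabolism fell. Of 21 cytoskeletal genes 17 were higher and none lower (median 1.42). Flna, filamin, had 56.7, 50.5 and 50.9 CPM in the C57 libraries and 410, 399.9 and 397 CPM in the controls (log2 fold change 2.93, SE 0.11, adjusted p = 5.06e-06), and Msn, moesin, 53.2, 52.95 and 53.6 CPM in the C57 libraries and 383, 409.7 and 360.5 CPM in the controls (log2 fold change 2.85, SE 0.10). The libraries of each group lay close together and far from those of the other. Of 22 glycolysis genes 12 were lower and none higher (median -0.62), Pgk1 falling from 1007, 1015 and 911 to 369.8, 366 and 364 CPM and Pfkfb2 from 92.9, 89.1 and 112 to 18.7, 10.3 and 14.8 CPM. Of 25 nuclear genes of oxidative phosphorylation 14 were lower and none higher (median -0.41), a count that ran from 8 without control 2 to 19 without C57 unnumbered. Photoreceptors are rich in both pathways, and the rod genes moved with them, but their part was not tested.

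Stress genes split. Metallothioneins rose, Mt2 from 25.8, 12.97 and 12.1 to 532, 414 and 349 CPM (log2 fold change 4.68, SE 0.34, adjusted p = 5.91e-05), as did Hmox1, haem oxygenase, from 5.05, 3.38 and 3.32 to 109.8, 129 and 86.02 CPM. Of the 20 metallothionein and NRF2 genes 8 were higher and 4 lower, Nqo1 among the lower (-0.997). Of 19 genes of the integrated and endoplasmic-reticulum stress response 8 were higher and 2 lower (median 0.67), and control 2 stood apart. Asns, asparagine synthetase, had 62.6, 82.98 and 67.8 CPM in the C57 libraries and 95.8, 175 and 100.2 CPM in the controls (log2 fold change 0.80, adjusted p = 0.0298). Control 2 stood above the other controls, and the call was lost without control 2 or any one C57 library (adjusted p 0.0526 to 0.0919). The median difference of the list from the C57 mean was 0.25 in control 1, 1.035 in control 2 and 0.28 in control 3, and without C57 2 the count of higher members was 3.

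**Figure D5:**
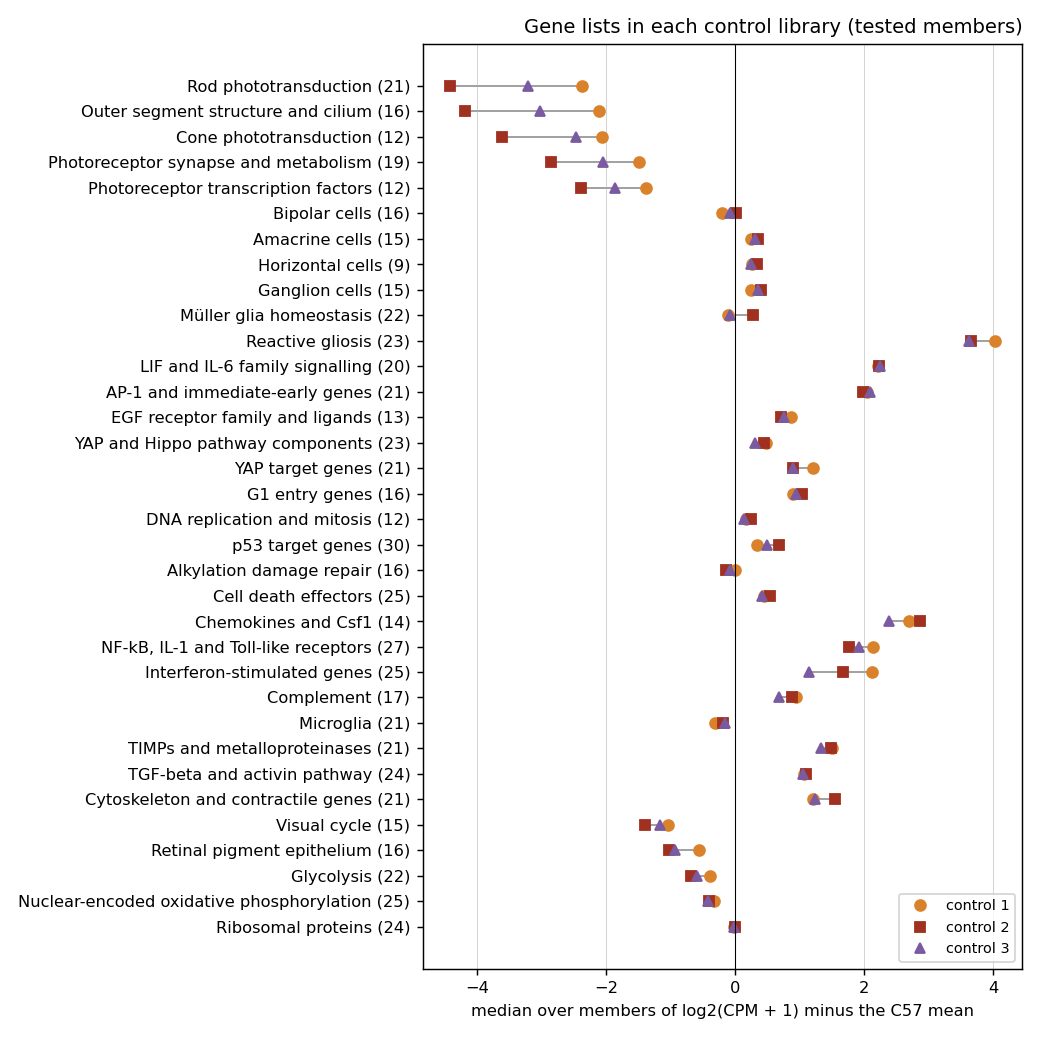
Median over the tested members of each gene list of log2(CPM + 1) minus the C57 mean, 1 symbol per control library, number of tested members in parentheses. Photoreceptor lists spread most, with control 2 lowest, while gliosis, cytokine and growth lists lie close together and the interferon list runs from control 1 down to control 3.

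A deposited table of the authors' own comparison of these groups listed 305 genes, in a table named for the comparison of knockout with control. Of the 302 tested here all 302 had the same sign as in the authors' deposited table, in which 223 were higher and 23 lower at an adjusted p under 0.05. Calls were shared for 237, with 1 called here only and 8 in the authors' deposited table only. For Ngfr, the neurotrophin receptor p75, the authors' deposited table gives a log2 fold change of 1.79 and the fit here 1.81. The table is built from the same libraries and is no independent evidence.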

How the data were processed

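Bulk RNA-seq of 3 control and 3 C57 retinas was read from a deposited table of gene counts, made by the authors. HISAT2 2.1.0, featureCounts, edgeR and GRCm38 are named in the submitters' processing notes. The sources used here give neither the annotation release nor the version and strand setting of featureCounts. The library kit keeps strand, per the labels' protocols. Columns were matched to groups through their names. The column of C57 unnumbered matches its group and no single sample. Of 47729 identifiers 47310 were found in GENCODE M21, which gave symbols and coordinates.

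Genes were kept by filterByExpr of edgeR 4.0.16 (minimum count 10, minimum total 15), scaled by TMM and tested with the robust quasi-likelihood test on the 6 libraries in R 4.3.3, with Benjamini-Hochberg adjustment at 0.05. Total counts per library set the precision, and intervals and floors cover counting error only, since reads carried no molecular identifiers. The floor for 0 reads was 3 counts per library, and 95% intervals of count ratios are exact. limma 3.58.1 and DESeq2 1.42.0 served as alternatives, with other scalings, filters, thinning, sex, GC content and each library left out. 2 groups sharing replicate numbers 1 and 2 were checked for pairing by the correlation of their deviations.

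Genes named are, per direction, the 15 with the largest change among those called, not overlapping and at 5 CPM or more, the 10 with the smallest p, and up to 3 members per list by size and 2 by level, plus a short list of retinal, glial and injury genes. Further list members were named after their values were seen. The 53 gene lists and the members were chosen with earlier results of these data known.

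A deposited table of the authors' comparisons gives log2 fold changes, p-values and FPKM group means. It lists genes under a name that refers to another comparison, knockout against control. Its comparison of these groups was set beside the fit. In it 17 columns of per-library or mean values were not used. Some items are not reported here.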

Additional observations from a re-analysis of the deposited data

How the results depend on the processing

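Of the alternatives to edgeR with TMM scaling, 2 moved the counts of called genes by over 1.5 times. With sex as a covariate 1728 genes were higher and 1874 lower, a fit that rests on the 1 male C57 library. In it 28 of the genes named in the text lost their call. Many lists counted fewer calls. Higher members numbered 0 (of 5 called before) for amacrine cells, 0 (of 3) for replication and mitosis, 0 (of 3) for alkylation repair, 1 (of 4) for horizontal cells, 4 (of 8) for ganglion cells, 4 (of 9) for Notch and progenitor genes, 4 (of 8) for endoplasmic-reticulum stress, 2 (of 5) for endothelium, 7 (of 14) for growth and survival factors, 8 (of 14) for cell death, 9 (of 16) for p53 targets, 7 (of 11) for complement and 14 (of 23) for interferon-stimulated genes. Lower members numbered 3 (of 5) for bipolar cells, 5 (of 10) for pigment epithelium, 7 (of 12) for glycolysis, 8 (of 14) for oxidative phosphorylation, 1 (of 4) for metallothionein and NRF2 genes and 0 (of 2) for ERK regulators. A test against a 2-fold change, which asks for more, called 968 and 747. Leaving out 1 library gave 2546 (without control 3) to 4832 (without C57 1) higher and 2493 (without control 2) to 4423 (without C57 1) lower genes. The correction for GC content, chosen after seeing the data, gave 3800 higher and 5205 lower genes, so 42.2% of calls were rises against 50.7% before, and put the median of all genes at -0.07. Scaling on genes of inner retinal neurons gave 3187 and 3803, and thinning the controls to the shallowest C57 library 3318 and 3245. Thinning left 14768 genes to test and kept 6429 of the 7202 calls. Of the named genes Gnb3, which was not called, changed sign, at -0.0264 with inner-neuron scaling, -0.077 with sex, -0.31 with GC correction, -0.21 with the replicate block, and between -0.22 (without C57 unnumbered) and 0.264 (without C57 1) when 1 library was left out. No other named gene changed sign under an alternative that was run.

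Replicate numbers 1 and 2 occur in both groups, but same-numbered libraries did not deviate together (r = -0.0372 and -0.00363), so they share a number only. A fit with the replicate number as a block on those 4 libraries called 3142 genes higher and 2708 lower, with 13 of 21 rod, 9 of 16 outer segment and 5 of 12 cone genes lower, and 3 amacrine, 2 horizontal cell and 1 replication and mitosis gene higher. Low counts limit chemokine, mitosis and leukocyte genes in the C57 libraries, where bounds and intervals are given.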

Other observations

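Genes outside the groups described so far also moved, and those in this paragraph were chosen after their values were seen. Adhesion molecules of endothelium, 3 of those that capture leukocytes, had no read in any C57 library. Sele, E-selectin, was at least 15.4-fold, Selp, P-selectin, at least 8.12-fold, and Madcam1 at least 6.7-fold higher in the control retinas against a floor of 3 counts per library. Esm1, a proteoglycan of sprouting vessels, was at least 19.1-fold and Lrg1, a vascular modifier of TGF-beta signalling, at least 11.2-fold higher. General endothelial genes were near level, as their summed CPM above show, while Plvap, a protein of leaky vessel walls, rose with a log2 fold change of 1.79 (SE 0.27, edgeR adjusted p = 0.00131). Of 15 Wnt ligands and antagonists 6 were higher and 2 lower. Wnt7a had a count ratio of 37.3 (95% counting interval 6.56 to 1490) and Wnt7b one of 28.7 (9.7 to 140), while Rspo2 fell. Ntf3, neurotrophin 3, rose by 3.90 on the log2 scale (SE 0.36, edgeR adjusted p = 0.000152).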
